A study of Mus musculus with 6 samples.

Results

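The genes that write, copy, erase and act on DNA methylation and Polycomb marks were followed in sorted LSK cells (negative for lineage markers, positive for Sca-1 and c-Kit), the bone marrow fraction that holds haematopoietic stem cells (HSCs) and early progenitors. The 10 genes were Dnmt1, Dnmt3a, Dnmt3b, Tet1, Tet2, Tet3, Uhrf1, Ezh1, Ezh2 and Bmi1, taken by gene name from the 37074 names on the array, and all 10 were present, with 28 probes between them. RNA was measured on 1-colour Agilent microarrays, where a spot shines brighter the more transcript binds its 60-base probe. The control samples were labelled Atg5w/w;VaviCre+ (n = 3) and the others Atg5f/f;VaviCre+ (n = 3, called Atg5f/f;Vav here), all C57BL/6 mice at P6 to P8. Both groups carried Vav-iCre, which acts in blood cells from the fetal period on, so the floxed Atg5 alleles, needed for autophagy, distinguish the groups. The sources used here do not say whether a sample was 1 mouse or a pool, so n, SD and p-values refer to the spread between arrays.

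DNA methyltransferases add methyl groups to cytosine. Dnmt3a and Dnmt3b set new methylation, whereas Dnmt1, brought to half-methylated DNA by Uhrf1, copies it after replication. Tet1, Tet2 and Tet3 oxidise methylcytosine on the way to its removal. Ezh2 and its relative Ezh1 are alternative catalytic subunits of Polycomb repressive complex (PRC) 2, which methylates histone H3 at lysine K27, and Bmi1 is a subunit of PRC1, which ubiquitinates histone H2A. Dnmt3a and Tet2 are known for limiting HSC expansion, and Bmi1 and Ezh1 for HSC maintenance.

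Signals are given as log2 intensity minus the array's own 75th percentile, so that 0 lies at that percentile. They compare arrays for 1 probe, not different probes with each other. Of 56605 probes, 32074 exceeded background clearly on 3 or more of the 6 arrays and were tested with limma, with Benjamini-Hochberg adjustment over all of them and a threshold of 0.05. All 10 genes were tested, with 25 of their 28 probes. Each gene was represented by its brightest probe, and all 10 such probes were well above background on every array.

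Features of the whole array set touch every value below. The arrays shared 1 slide, on which row 1 held the control group and row 2 the other, so row and genotype cannot be told apart. Between 59.4% and 59.9% of spots were well above background on the control arrays, against 53.6% to 56.7% on the arrays labelled Atg5f/f;Vav. The defining markers of the gate were detected on every array. Kit was 4.01, 4.12 and 3.93 in control and 3.82, 3.61 and 3.50 on the arrays labelled Atg5f/f;Vav (adjusted p = 0.056, limma), and Ly6a, which encodes Sca-1, was 1.57 higher there (SE 0.15, adjusted p = 0.0062). Atg5 itself, by 1 probe from base 2251 of its transcript (mm9 chr10:44083997-44084056, + strand), was 1.10, 0.93 and 1.06 in control and 1.46, 1.51 and 1.74 on the arrays labelled Atg5f/f;Vav, a difference of 0.54 (SE 0.12, adjusted p = 0.021, limma). The sources used here do not place this probe against the deleted part of the gene, so it does not check the genotypes, and every direction below rests on the labels.

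Some sequences behind the measurements are shown first. The following probes, read from the deposited files, measured Dnmt1, Uhrf1, Tet1 and Ezh2. The Dnmt1 probe is shown because its values carry that gene's result. The Tet1 probe is the one of its 3 with the largest fall, whereas the gene's result rests on its brightest probe, from base 6892, which is not printed. The Ezh2 probe is shown because it passed the test where the gene's brightest probe did not. The Uhrf1 probe is shown because it did not pass where the brightest, from base 3430, did.
Dnmt1 probe from base 4984: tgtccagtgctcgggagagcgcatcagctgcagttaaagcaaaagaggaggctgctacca
Uhrf1 probe from base 985: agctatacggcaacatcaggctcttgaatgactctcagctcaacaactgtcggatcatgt
Tet1 probe from base 3128: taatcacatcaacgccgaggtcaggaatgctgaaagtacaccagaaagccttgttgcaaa
Ezh2 probe from base 2116: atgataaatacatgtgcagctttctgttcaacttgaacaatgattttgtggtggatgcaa
The probes of Dnmt1, Uhrf1 and Ezh2 among these span 369, 654 and 896 bases of the genome for 60 bases of transcript and so cross a splice junction, whereas the Tet1 probe is continuous on chr10:62301856-62301915 of mm9 (- strand). Positions are those the array files give on mm9; exons and UTRs were not assigned, since no mm9 annotation was used here.

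Promoter windows of RefSeq (GRCm38.p6, 250 bases before to 50 after a start) were found for all 10 genes, 15 windows in all. They were searched on both strands for a pair of words bound by E2F factors of the cell cycle, TTTGGCGC and TTTCGCGC, and the words were chosen after the array values were known. Either word was present in 0.813% of 32851 windows and in the windows of 0.929% of 27025 genes. Among the 10 genes it was present for 3, Dnmt1, Uhrf1 and Ezh2, each in 1 of the gene's windows, and no matches overlapped. The stretches below are shown with the word, or its reverse complement, in capitals, and the Ezh1 window, which has neither word, is shown beside that of Ezh2.
Dnmt1, chr9:20952835-20952873, - strand: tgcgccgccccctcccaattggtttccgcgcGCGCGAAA
Uhrf1, chr17:56304063-56304312, + strand: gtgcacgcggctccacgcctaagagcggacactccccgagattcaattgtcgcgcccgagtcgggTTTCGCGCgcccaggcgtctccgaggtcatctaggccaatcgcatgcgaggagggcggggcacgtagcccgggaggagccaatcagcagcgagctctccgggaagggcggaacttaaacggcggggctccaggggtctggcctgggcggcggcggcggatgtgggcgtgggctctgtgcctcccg
Ezh2, chr6:47595020-47595280, - strand: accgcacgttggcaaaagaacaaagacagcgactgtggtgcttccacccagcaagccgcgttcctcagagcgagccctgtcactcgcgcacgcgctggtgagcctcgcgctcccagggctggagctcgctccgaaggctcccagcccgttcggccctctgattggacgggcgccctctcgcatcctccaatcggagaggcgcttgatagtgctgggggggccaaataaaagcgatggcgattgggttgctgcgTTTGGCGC
Ezh1, chr11:101226464-101226713, - strand: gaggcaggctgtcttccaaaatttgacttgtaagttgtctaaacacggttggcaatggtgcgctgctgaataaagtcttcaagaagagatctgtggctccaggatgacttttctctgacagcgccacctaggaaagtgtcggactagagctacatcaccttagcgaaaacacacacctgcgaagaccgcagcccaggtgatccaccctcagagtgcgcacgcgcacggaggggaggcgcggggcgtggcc
The word began at position -219 from the start in Dnmt1, -185 in Uhrf1 and +4 in Ezh2, and the Dnmt1 window held the other form at +34. A match describes letters, not a bound site. The windows were also rich in CpG, the dinucleotide that is methylated: 14 of the 15 held more than the median of 7 over all windows, with a range of 2 to 57. Both words contain CpG, and their share among windows equally rich in CpG was not taken. The count of 3 genes therefore has no matched share beside it and is not a result about these genes.

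The 10 genes did not move as a block between the groups. Dnmt1 and Uhrf1 rose and Tet1 fell on the arrays labelled Atg5f/f;Vav, so that 3 of 10 genes passed the threshold, against 34.1% of the 20778 genes tested in the same way (18.7% higher and 15.3% lower). Their share is near that of all genes and is not a result about these genes. By probe, 10 of 25 passed, 4 higher and 6 lower, against 34.4% of all probes tested (17.3% and 17.1%). No overlap between groups was seen for 7 genes, 2 higher and 5 lower, against 55.9% of all genes (29.6% higher and 26.3% lower). None of the 10 was called without control replicate 1, control replicate 2 or replicate 2 labelled Atg5f/f;Vav, where 2, 3 and 4 of them had an unadjusted p under 0.05 by limma, and over the whole array 330, 251 and 7722 probes were called without those arrays, in place of 11024. The median difference was -0.21 over the 10 genes and -0.03 over all genes. As the samples are bulk RNA, fewer cells of a type and less RNA per cell cannot be told apart.

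**Figure D1:**
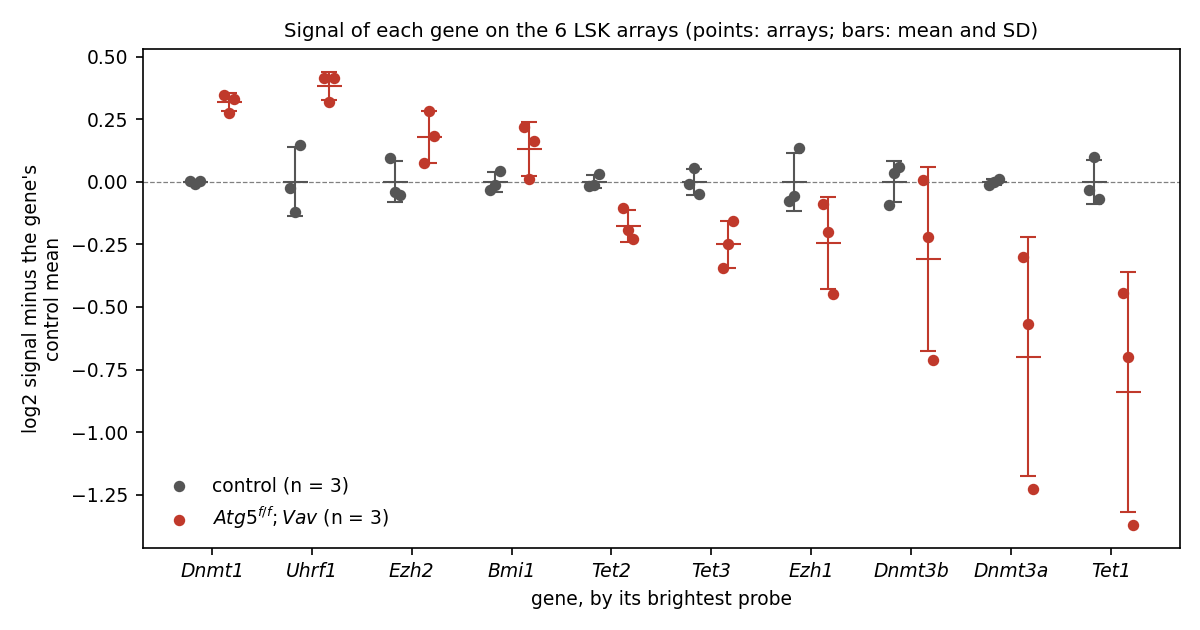
Log2 signal of each gene's brightest probe on each array, minus the gene's control mean (y axis, log2 units), for 3 control arrays (grey) and 3 arrays labelled Atg5f/f;Vav (red); points are arrays and bars the mean and SD. Dnmt1 and Uhrf1 lie above their controls on all 3 arrays labelled Atg5f/f;Vav, while Tet1, Dnmt3a, Tet2, Tet3 and Ezh1 lie below theirs, with the widest spread for Tet1 and Dnmt3a.

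The maintenance pair was higher on the arrays labelled Atg5f/f;Vav. Dnmt1, the maintenance methyltransferase, was measured by 1 probe (mm9 chr9:20711973-20712341, - strand), with a log2 signal of 1.70, 1.69 and 1.70 in control and 2.04, 1.97 and 2.03 in the other group. The groups did not overlap and each was tight, with an SD of 0.0062 in control and 0.037 in the other group. The difference was 0.32 (SE 0.097, adjusted p = 0.043, limma), a 1.25-fold rise.

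Uhrf1, which reads half-methylated DNA and brings Dnmt1 to it, had a log2 signal of 4.66, 4.57 and 4.84 in control and 5.11, 5.01 and 5.11 on the arrays labelled Atg5f/f;Vav by its brightest probe, from base 3430 of the transcript (mm9 chr17:56462770-56462829, + strand). All 3 values of the second group lay above those of control. The difference was 0.38 (SE 0.12, adjusted p = 0.042, limma), or 1.30-fold. A dimmer probe, from base 985 (mm9 chr17:56451668-56452321), pointed the same way by 0.25 but overlapped between groups (adjusted p = 0.18), with -0.93, -1.14 and -0.92 in control and -0.94, -0.71 and -0.60 in the other group.

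Both rises were close to the threshold, and their calls depended on the scaling and on single arrays. With 1 array left out at a time, Dnmt1 was called in 0 of 6 fits and Uhrf1 in 1 of 6. Dnmt1 kept its call under 6 of 17 alternatives and Uhrf1 under 6 of 17, with adjusted p-values of 0.025 to 0.34 and 0.015 to 0.84. Under quantile normalisation the differences were 0.15 for Dnmt1 and 0.028 for Uhrf1, and neither was called. With each array scaled on the probes detected on all arrays they were 0.11 and 0.18, also not called. That scaling lowers the difference of every probe by the same amount (median of all probes -0.27, against -0.06). Relative to that median they were 0.38 and 0.44 higher by construction, which does not bear on the rises. Under quantile normalisation the differences relative to the median of all probes were 0.16 for Dnmt1 and 0.040 for Uhrf1.

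Neither gene for new methylation passed the threshold. Dnmt3a had a log2 signal of 2.28, 2.29 and 2.30 in control and 1.99, 1.72 and 1.06 on the arrays labelled Atg5f/f;Vav by its brightest probe, from base 9611 (mm9 chr12:3914320-3914379, + strand). Every array of the second group lay below control, with replicate 3 lowest by far. The difference of -0.70 (SE 0.23) missed the threshold (adjusted p = 0.054, limma), and was called under 7 of 17 alternatives. Without replicate 3 labelled Atg5f/f;Vav it was -0.43 (adjusted p = 0.041). The other tested probe of Dnmt3a, from base 3518 (mm9 chr12:3908227-3908286), gave -1.03, -0.68 and -0.80 in control and -0.77, -0.86 and -0.90 in the other group, a difference of -0.01 (SE 0.13, adjusted p = 0.96). The probes therefore disagreed: within an array, the first minus the second was 3.30, 2.97 and 3.10 in control and 2.76, 2.58 and 1.96 on the arrays labelled Atg5f/f;Vav. Further probes of Dnmt3a, from bases 425 and 3927 of other transcripts, were well above background on no array.

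Dnmt3b, the second enzyme for new methylation, was measured by 3 probes, none of which passed the threshold. By the brightest, from base 4259 (mm9 chr2:153513402-153513461, + strand), the log2 signal was 4.72, 4.85 and 4.87 in control and 4.82, 4.59 and 4.10 on the arrays labelled Atg5f/f;Vav. Replicate 1 of the second group lay within the control range and replicate 3 well below it. The difference was -0.31 (SE 0.19, adjusted p = 0.24), and it was -0.11 (adjusted p = 0.53) without replicate 3 and -0.47 (adjusted p = 0.087) without replicate 1 of that group. The probes from bases 2955 and 388 gave -0.33 (adjusted p = 0.22) and -0.62 (adjusted p = 0.16), and only the latter, which crosses a junction, did not overlap between groups.

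Tet1 had the lowest values of the 10 genes relative to control, and its probes pointed the same way. The brightest, from base 6892 (mm9 chr10:62274448-62274507, - strand), gave a log2 signal of 1.79, 1.92 and 1.75 in control and 1.38, 1.12 and 0.45 on the arrays labelled Atg5f/f;Vav, a fall of 0.84 on the log2 scale (SE 0.23, adjusted p = 0.034, limma; 0.559-fold). The Tet1 probe printed above, from base 3128, gave 0.85, 0.84 and 0.48 in control and -0.27, -0.05 and -0.80 in the other group (difference -1.10, SE 0.22, adjusted p = 0.017). From base 5298 the values were -0.68, -0.73 and -0.83 against -1.07, -1.21 and -1.67 (difference -0.57, SE 0.17, adjusted p = 0.042). For each of the 3 probes every array labelled Atg5f/f;Vav lay below every control array, and replicate 3 was the lowest. Without that array the fall of the brightest probe was -0.57 (adjusted p = 0.024). Under the background corrections and scalings tried it ranged from -1.04 to -0.79, and it kept its call under 11 of 17 alternatives; the probe from base 3128 kept its call under 13 of 16.

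Tet2, the family member often mutated in blood cancers, differed by less, and its probes disagreed on the call. The brightest, from base 9011 (mm9 chr3:133126751-133126810, - strand), was 0.32, 0.32 and 0.36 in control and 0.23, 0.14 and 0.10 on the arrays labelled Atg5f/f;Vav. The groups did not overlap, yet the difference of -0.18 (SE 0.10) did not pass (adjusted p = 0.20, limma). The dimmer probes from bases 667 and 6061 fell, by 0.47 (SE 0.11, adjusted p = 0.022) and by 0.38 (SE 0.10, adjusted p = 0.033) on the log2 scale. The first of them, designed on another transcript, gave -1.98, -2.12 and -2.05 in control and -2.63, -2.43 and -2.51 in the other group. The second gave -1.15, -1.10 and -1.19 in control and -1.43, -1.56 and -1.57 in the other group. They kept their call under 11 and 7 of 16 alternatives, and neither was called under quantile normalisation (-0.27 and -0.26). The brightest probe was called lower with scaling on the probes detected on all arrays (-0.38, adjusted p = 0.027, limma).

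Tet3, the remaining oxidase, was not called by either probe. From base 2202 (mm9 chr6:83352743-83352802, - strand) the signal was -2.09, -2.03 and -2.14 in control and -2.43, -2.33 and -2.24 on the arrays labelled Atg5f/f;Vav, without overlap (difference -0.25, SE 0.11, adjusted p = 0.11, limma). From base 3494 the difference was -0.14 (SE 0.18, adjusted p = 0.56), and the groups overlapped.

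**Figure D2:**
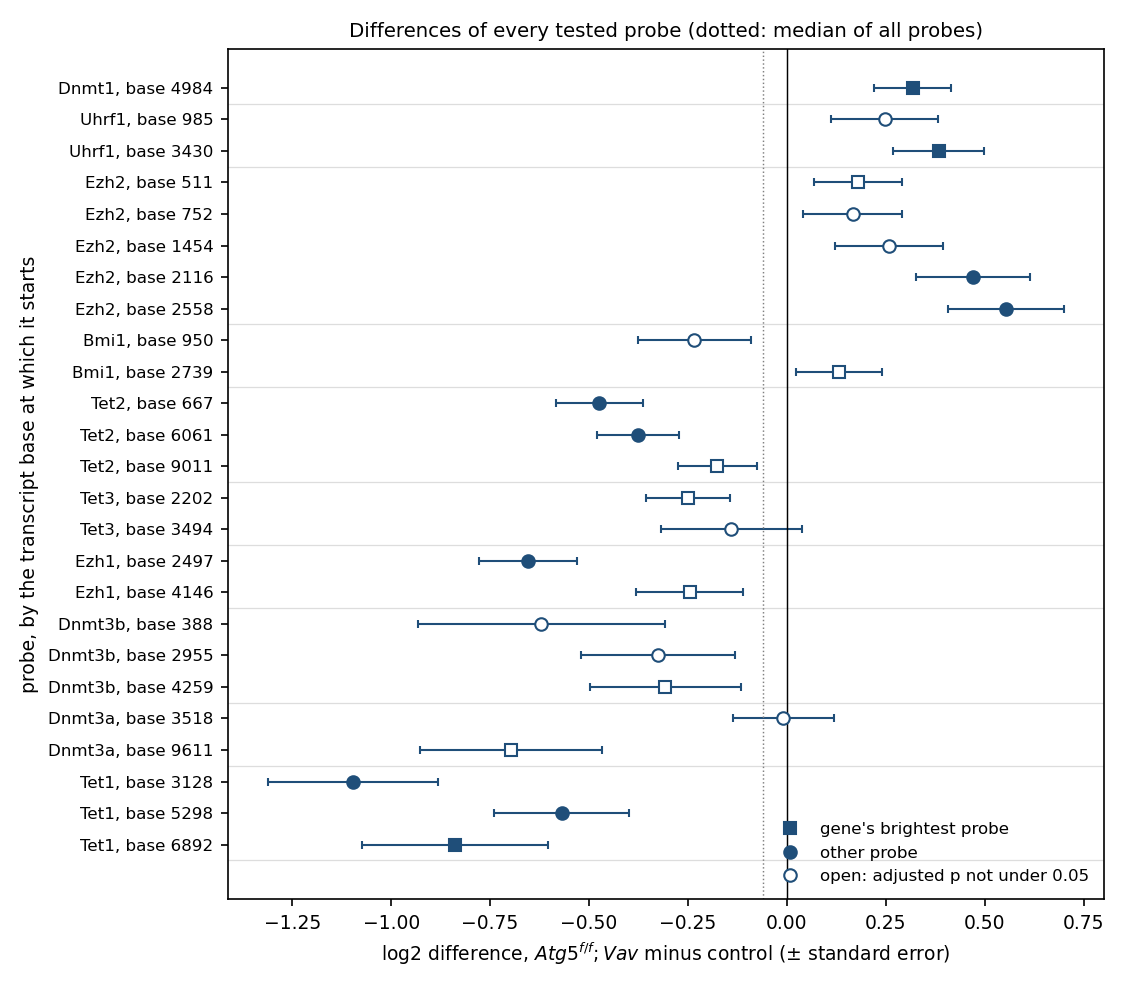
Log2 difference, arrays labelled Atg5f/f;Vav minus control, with its standard error (x axis), for each of the 25 tested probes, named by gene and the transcript base at which the probe starts; squares are each gene's brightest probe, filled symbols have an adjusted p under 0.05, and the dotted line is the median of all probes. The 3 Tet1 probes lie together on the lower side, whereas the probes of Dnmt3a (-0.70 and -0.01) and of Bmi1 (0.13 and -0.23) do not lie together.

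Ezh2, the PRC2 methyltransferase of dividing cells, pointed higher by all 5 probes, of which 2 passed. Its brightest probe, from base 511 (mm9 chr6:47506086-47506145, - strand), gave 2.30, 2.17 and 2.16 in control and 2.28, 2.49 and 2.39 on the arrays labelled Atg5f/f;Vav, with overlap (difference 0.18, SE 0.11, adjusted p = 0.24, limma). The probe from base 2558 (mm9 chr6:47480307-47480366), whose mean signal over all arrays of 2.30 equals that of the first to 2 decimals, gave 1.93, 1.85 and 2.28 in control and 2.63, 2.45 and 2.65 in the other group. These groups did not overlap, and the difference was 0.55 (SE 0.15, adjusted p = 0.030). The Ezh2 probe printed above, from base 2116, rose by 0.47 (SE 0.14, adjusted p = 0.044), from 1.09, 0.92 and 1.31 to 1.62, 1.41 and 1.71. The probes from bases 752 and 1454 gave 0.17 (adjusted p = 0.33) and 0.26 (adjusted p = 0.17). The brightest probe changed sign under quantile normalisation (-0.02) and under scaling on the probes detected on all arrays (-0.03). Those from bases 2116 and 2558 stayed above 0 in all 16 alternatives, at 0.26 to 0.57 and 0.35 to 0.68. They kept their call under only 7 and 8 of the 16, and neither was called under quantile normalisation or under scaling on the probes detected on all arrays.

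Ezh1, the PRC2 methyltransferase linked to quiescent cells, pointed the opposite way. Its brightest probe, from base 4146 (mm9 chr11:101052430-101052489, - strand), was 2.82, 2.83 and 3.02 in control and 2.80, 2.69 and 2.44 on the arrays labelled Atg5f/f;Vav. The groups did not overlap by a narrow margin, and the difference of -0.25 (SE 0.14) did not pass (adjusted p = 0.19, limma). It was -0.14 (adjusted p = 0.38) without replicate 3 labelled Atg5f/f;Vav, and was called lower under 3 of 17 alternatives: quantile normalisation (-0.49), scaling on the probes detected on all arrays (-0.45) and the mean of its probes (-0.45). A dim probe from base 2497 of another transcript, which enters that mean, fell by 0.65 on the log2 scale (SE 0.12, adjusted p = 0.017). It went from -3.63, -3.59 and -3.42 to -4.07, -4.19 and -4.34, and was well above background on 2 of the 3 arrays labelled Atg5f/f;Vav. Its difference was -0.26 with normexp background correction (adjusted p = 0.065, limma) and -0.33 under quantile normalisation (adjusted p = 0.11), and neither was called. The probe from base 3557 was well above background on 1 array and was not tested.

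Bmi1, the PRC1 subunit required for self-renewal of HSCs, was not called. Its brightest probe, from base 2739 (mm9 chr2:18607402-18607461, + strand), gave 1.16, 1.18 and 1.24 in control and 1.41, 1.20 and 1.36 on the arrays labelled Atg5f/f;Vav, with overlap (difference 0.13, SE 0.11, adjusted p = 0.36, limma). The probe from base 950 pointed the other way, by -0.23 (SE 0.14, adjusted p = 0.23). The sign of the gene thus depended on the probe, and that of its brightest probe also on the scaling. The Ink4 and Arf genes Cdkn2a and Cdkn2b, the best-known targets of Bmi1, were not well above background on 3 arrays and were not tested.

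**Figure D3:**
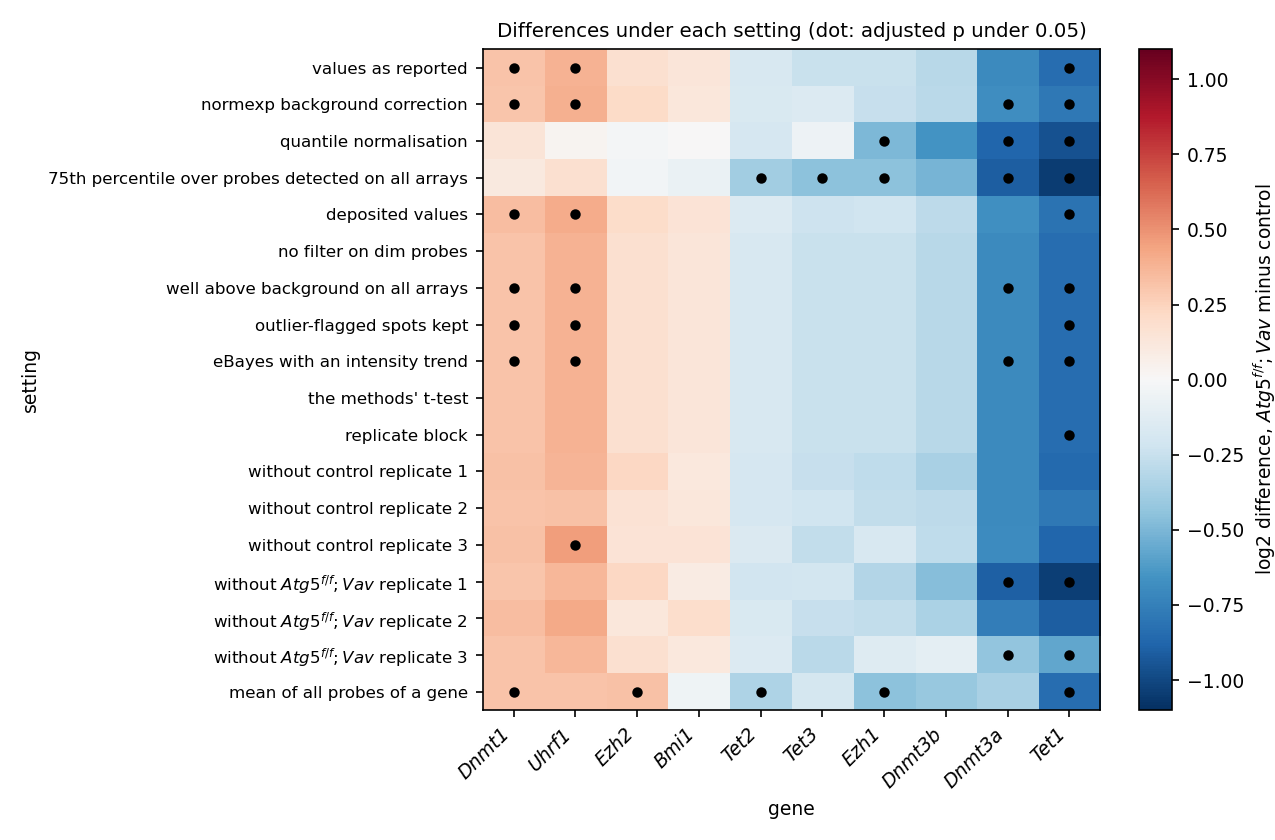
Log2 difference, arrays labelled Atg5f/f;Vav minus control (colour scale), of each gene (x axis) under each processing setting (y axis); dots mark an adjusted p under 0.05. Tet1 is negative in every row and Dnmt1 and Uhrf1 positive, while no gene carries a dot without a filter on dim probes, under the methods' t-test, or without control replicate 1, control replicate 2 or replicate 2 labelled Atg5f/f;Vav.

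Relatives were also compared within each array, where the scaling to the 75th percentile cancels. For 6 pairs, the difference of log2 signals was taken on each array and tested by a 2-sided exact permutation test, which cannot go below p = 0.1 with 3 arrays against 3. Tet1 minus Tet2 was 1.47, 1.60 and 1.39 in control and 1.15, 0.98 and 0.34 on the arrays labelled Atg5f/f;Vav, a change of -0.66. Tet1 minus Tet3 changed by -0.59, from 3.88, 3.95 and 3.89 to 3.81, 3.45 and 2.69. Dnmt3a minus Dnmt3b changed by -0.39, from -2.44, -2.56 and -2.57 to -2.83, -2.87 and -3.04. In these 3 pairs the groups did not overlap, and each had the smallest exact p possible, 0.1 (0.2 after adjustment over the 6 pairs). The Dnmt3a pair rests on the probe from base 9611 (-0.70), with which the probe from base 3518 (-0.01) disagreed. With the mean of each gene's probes, Dnmt3a differed by -0.35 and Dnmt3b by -0.42, so the direction of this pair reversed and depends on the probe. Without replicate 3 labelled Atg5f/f;Vav the change was -0.42 for Tet1 minus Tet2 and -0.28 for Tet1 minus Tet3. By the brightest probes, the signal of Tet1 was lower relative to that of Tet2 or Tet3 on every array labelled Atg5f/f;Vav than on any control array. The brightest probe of Tet2 was the one that fell least (-0.18, against -0.47 and -0.38). Taken against the Tet2 probe from base 667, the brightest Tet1 probe overlapped between groups. These probes gave -2.63 and 1.38 on replicate 1 labelled Atg5f/f;Vav, and -1.98 and 1.79 in control replicate 1. Against the Tet2 probe from base 6061 the groups did not overlap. The dimmer probes of Tet1 and Tet3 were not compared within arrays, so the statement is limited to the brightest.

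The other pairs overlapped between groups. Ezh2 minus Ezh1 was -0.51, -0.67 and -0.87 in control and -0.52, -0.20 and -0.05 on the arrays labelled Atg5f/f;Vav, a change of 0.42 (exact p = 0.2, adjusted 0.3). Tet2 minus Tet3 changed by 0.07 (exact p = 0.7, adjusted 0.7) and Dnmt1 minus Uhrf1 by -0.07 (exact p = 0.5, adjusted 0.6).

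Of 12 readers and partners of the methyltransferases, 11 were tested, and 2 rose, 2 fell and 7 did not pass, with a median difference of -0.05. Over all genes tested, 34.1% were called (18.7% higher and 15.3% lower), so the count is near the background and is not a result about these partners. Mbd2, which binds methylated CpG, was 1.90, 1.84 and 2.001 in control and 2.46, 2.64 and 3.35 on the arrays labelled Atg5f/f;Vav, a rise of 0.90 (SE 0.23, adjusted p = 0.027, limma). Mbd3, a subunit of the NuRD complex, rose by 0.53 (adjusted p = 0.021). The zinc finger readers of methylated DNA Zbtb4 and Zbtb38 fell by 1.08 (adjusted p = 0.023) and by 0.52 (adjusted p = 0.020) on the log2 scale. Hells, a remodeller needed for DNA methylation, differed by 0.21 (adjusted p = 0.19). Dnmt3l, the cofactor of Dnmt3a and Dnmt3b in germ cells, was not well above background on 3 arrays.

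Among 12 genes tied to demethylation, 10 were tested, and 4 rose, 1 fell and 5 did not pass, with a median of 0.14, beside 18.7% higher and 15.3% lower over all genes tested. The Gadd45 genes, stress-induced genes that have been linked to demethylation, accounted for 3 of the 4. Gadd45g was -0.04, 0.08 and 0.28 in control and 1.17, 2.21 and 3.10 on the arrays labelled Atg5f/f;Vav, a rise of 2.05 (SE 0.44, adjusted p = 0.019, limma). Gadd45b rose by 0.93 (adjusted p = 0.0092) and Gadd45a by 0.73 (adjusted p = 0.034). Tdg, the glycosylase that excises the oxidised bases made by Tet enzymes, rose by 0.41 (adjusted p = 0.045), but was not called under quantile normalisation (0.12) or with scaling on the probes detected on all arrays (0.21). Ogt, a sugar transferase that binds Tet proteins, fell by 0.48 (adjusted p = 0.033).

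Of 10 PRC2 genes, 9 were tested, and 1 rose, 1 fell and 7 did not pass, with a median of 0.00, beside 34.1% called over all genes. The rise was in Suz12, a core subunit, by 0.38 (SE 0.12, adjusted p = 0.049, limma), and was not called under quantile normalisation (0.22) or with scaling on the probes detected on all arrays (0.17). The core subunit Eed differed by 0.21 (adjusted p = 0.14) and was at -0.05 under quantile normalisation. The fall was in Phf1, an accessory subunit, by 0.41 (adjusted p = 0.026).

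Of 20 other PRC1 genes, all were tested, and 4 rose, 4 fell and 12 did not pass, with a median of -0.12, a share near the 34.1% called over all genes. L3mbtl2 and Pcgf6, subunits of a variant PRC1, rose by 0.79 (adjusted p = 0.019, limma) and 0.58 (adjusted p = 0.029), and Phc2, a Polyhomeotic subunit, by 0.51 (adjusted p = 0.021). Cbx7, the Polycomb reader linked to HSC self-renewal, was -0.52, -0.31 and -0.44 in control and -1.11, -1.25 and -1.48 on the arrays labelled Atg5f/f;Vav, a fall of 0.85 on the log2 scale (SE 0.13, adjusted p = 0.015). Its relative Cbx8 fell by 1.03 (adjusted p = 0.029), and Scmh1 by 0.58 (adjusted p = 0.025). The ubiquitin ligases of the complex, Rnf2 and Ring1, differed by -0.16 (adjusted p = 0.37) and 0.27 (adjusted p = 0.18). Of 5 genes that remove the Polycomb marks or assist in it, Bap1, the H2A deubiquitinase, rose by 0.38 (adjusted p = 0.042), and Kdm6b, an H3K27 demethylase, fell by 0.48 (adjusted p = 0.035). With scaling on the probes detected on all arrays, the PRC1 split became 1 higher and 7 lower. Gadd45a (0.53), Pcgf6 (0.38), Phc2 (0.30) and Bap1 (0.17) kept their sign but not their call there, as did Mbd3 (0.18), Phc2 (0.22) and Bap1 (0.22) under quantile normalisation. None of the partner genes named or counted here was called without control replicate 1 or control replicate 2.

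**Figure D4:**
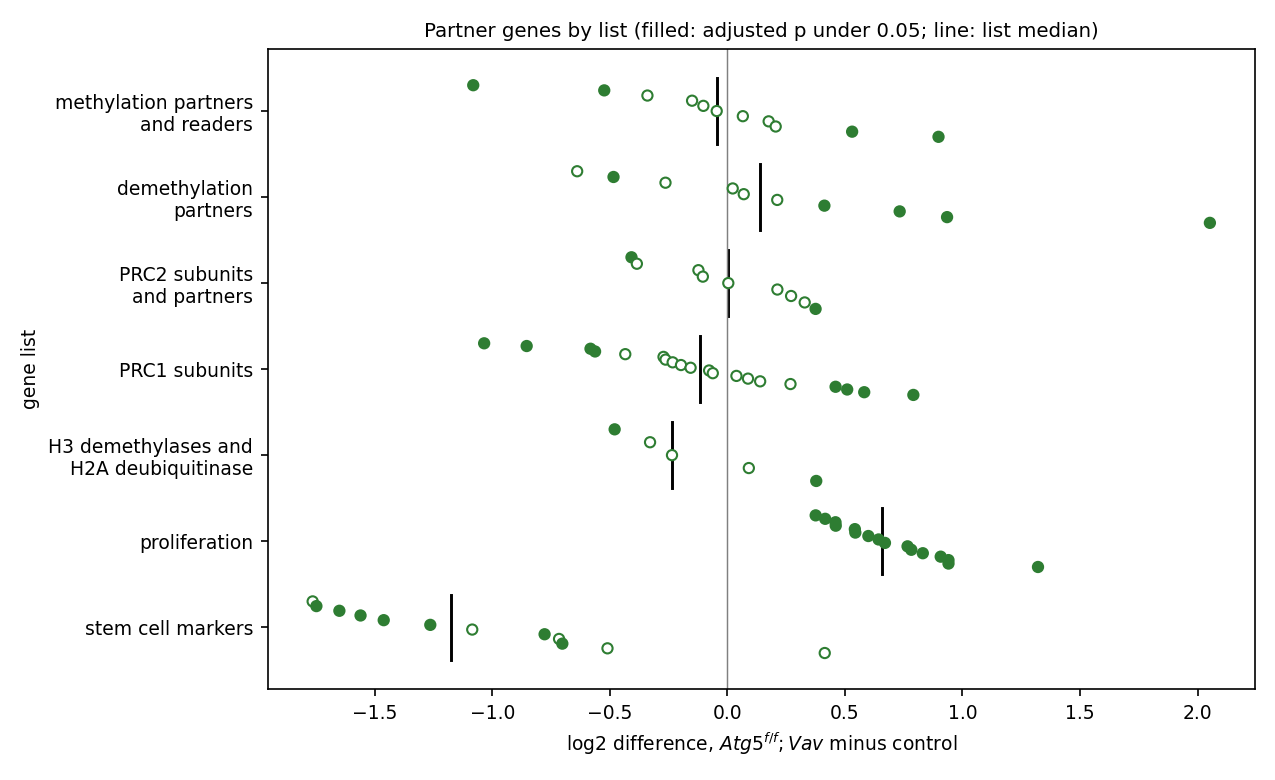
Log2 difference, arrays labelled Atg5f/f;Vav minus control (x axis), of each tested gene in 5 partner lists, the proliferation list and the stem cell marker list (y axis); filled points have an adjusted p under 0.05 and the vertical lines are list medians. The partner lists straddle 0, while the proliferation genes lie above 0 (median 0.66) and 11 of 12 stem cell markers below it (median -1.17).

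Marker RNA of the cell cycle and of several cell types differed between the same groups. The counts below stand beside 18.7% called higher and 15.3% lower over all genes tested. All 16 of 16 proliferation genes rose, and their summed linear signal was 251 to 302 in control and 383 to 463 on the arrays labelled Atg5f/f;Vav. Ccne1, the cyclin of S-phase entry, rose by 1.32 (adjusted p = 0.024, limma), and Cdk1, the mitotic kinase, by 0.94 (adjusted p = 0.018). Of 12 stem cell markers, 7 fell and 5 did not pass, and their summed signal was 54.7 to 58.0 against 16.2 to 34.2. Mecom, an HSC transcription factor, fell by 1.75 (adjusted p = 0.017) and Hlf by 1.65 (adjusted p = 0.017) on the log2 scale. Replicate 3 labelled Atg5f/f;Vav, which was lowest for Tet1, Dnmt3a and Dnmt3b, was also the lowest for Mecom (-3.43, against -2.29 and -2.15) and Hlf (1.17, against 2.36 and 2.42). When single arrays were omitted, the median over the stem cell markers ranged from -1.40 to -0.73. Without control replicate 1 or control replicate 2, none of the proliferation genes or stem cell markers was called, while 7 of the 16 proliferation genes were under quantile normalisation and 10 with scaling on the probes detected on all arrays. Summed stromal markers were 10.2 to 40.7 in control and 6.84 to 9.61 on the arrays labelled Atg5f/f;Vav. Erythroid markers split: 4 of 8 rose, among them Klf1 (2.95, adjusted p = 0.016), Car1 (3.80, adjusted p = 0.014) and Tfrc (2.15, adjusted p = 0.011), while the globins Hba-a1 and Hbb-b1 fell by 2.26 (adjusted p = 0.014) and by 1.92 (adjusted p = 0.017) on the log2 scale. The median over the 8 was 1.19, whereas their summed signal, largely Hba-a1, was 233 to 515 in control and 92.7 to 145 on the arrays labelled Atg5f/f;Vav. Neutrophil markers split as well: Mpo (1.003), Prtn3 (0.89) and Ctsg (1.91), genes of early granules, rose. Of the 9, 5 fell, among them S100a8 (-1.38), Ltf (-1.38) and S100a9 (-1.34), genes of later stages. Elane, also a gene of early granules, did not rise, so the split did not follow the granule stage throughout. The median over the 9 neutrophil markers was -1.21, and their summed signal 181 to 299 in control and 244 to 303 in the other group. Without control replicate 1 or control replicate 2, none of the erythroid or neutrophil markers was called. The part of cell type or cycle in the differences of Dnmt1, Uhrf1, Ezh2, Tet1 and Dnmt3a was not tested.

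Nearness between genes was taken as the root mean square difference of their 6 log2 signals, each centred on the gene's own mean. The nearest gene to each was then named among those of the 20778 tested whose brightest probe had values on all 6 arrays. For Tet1 it was Arid5b, at 0.022, and for Dnmt3a it was Peg13, at 0.027, with differences between groups of -0.83 and -0.74. For Dnmt1 it was Mfap1a (0.021) and for Uhrf1 Dcaf11 (0.017). For Tet2 it was Trim33 (0.021), for Tet3 Asxl2 (0.016), for Ezh1 4930515G01Rik (0.021), for Ezh2 Selenbp2 (0.042), for Bmi1 Cep83 (0.012) and for Dnmt3b Homez (0.031). Within 0.1 of a gene lay 134 others for Tet1, 191 for Dnmt3a and 258 for Dnmt3b, 598 for Ezh1, 684 for Tet3, 829 for Ezh2, 1048 for Tet2, 1594 for Bmi1, 1595 for Dnmt1 and 1682 for Uhrf1. A fixed distance takes in more genes where a gene varies little between arrays, so these counts do not rank how particular a pattern is. They are likenesses over 6 arrays and are given as a description.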

How the data were processed

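The authors deposited, for each of 6 arrays, the intensity of every spot, background-corrected by Agilent Feature Extraction 12.0.3.1 with no scaling between arrays, and a table of normalised signal. Within each array, intensity divided by deposited signal was nearly constant and close to the 75th percentile of all its spots (571.9 against 571.7 in control replicate 2, where they differed most). Here log2 intensity was taken minus the 75th percentile of the 59305 spots that are not controls (620 to 881 in intensity). Between 64 and 81 outlier spots of an array were dropped, and no spot was saturated. Spots of a probe were averaged. The test was lmFit and eBayes of limma 3.58.1 (R 4.3.3), 2-sided and without covariates, on probes well above background on at least 3 arrays. Steps were tested on simulated data. The number of arrays limits the precision.

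Genes were named from the array files, each by its probe with the highest mean signal. The 10 genes and all lists were chosen with earlier results of these data known. The rule named all 10 genes and all their probes, at most 3 genes each way with the largest difference among those called in each list, partners whose role is stated, and the nearest gene by root mean square difference. Lists of macrophage (0 of 4 tested genes called), B cell (1 of 7), T and NK cell (0 of 5), megakaryocyte (3 of 6) and mast cell and eosinophil markers (1 of 6) served as checks. Over all genes tested, 34.1% were called.

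Alternatives were normexp on raw intensity (offset 50), quantile normalisation, scaling on the probes detected on all arrays, the deposited signal, no filter, a filter on all arrays, outlier spots kept, an intensity trend, the methods' t-test, a replicate block, the mean of a gene's probes, and each array left out. All arrays shared 1 slide and 1 scan, so neither could be a block.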

Additional observations from a re-analysis of the deposited data

How the results depend on the processing

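Of the 10 genes, 3 were called. The count was 5 under scaling on the probes detected on all arrays (0 higher, 5 lower), where 13459 of all 32074 probes tested were called. It was also 5 with the mean of a gene's probes, where 7018 of all 20778 genes were called. It was 0 without a filter on dim probes, where 4 had an unadjusted p under 0.05 by limma. It was also 0 under the methods' t-test, where 5 had an unadjusted p under 0.05 and 0 of all probes were called after Benjamini-Hochberg adjustment, against 13541 before it. With each array left out the count ranged from 0 to 2, and that of all probes called from 251 (without control replicate 2) to 10304, in place of 11024. Without a filter 4538 probes were called. Scaling on the probes detected on all arrays turned the split of called probes from 5540 higher and 5484 lower to 3371 and 10088. Ezh2 changed sign under quantile normalisation (-0.024) and under scaling on the probes detected on all arrays (-0.027), and Bmi1 under the latter (-0.075) and with the mean of its probes (-0.052).

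Between relatives, Dnmt3a minus Dnmt3b turned to 0.064 with the mean of all probes and was -0.21 under quantile normalisation. Tet2 minus Tet3 turned to -0.019 with normexp, -0.13 under quantile normalisation and -0.15 with the mean of all probes, and ranged from -0.010 to 0.15 with each array left out. Dnmt1 minus Uhrf1 turned to 0.12 under quantile normalisation and 0.0029 with the mean of all probes. The changes of Ezh2 minus Ezh1, Tet1 minus Tet2 and Tet1 minus Tet3 kept their direction under all 10 alternatives run for each. The cause of these shifts was not tested.

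Deviations of same-numbered arrays correlated weakly, at -0.07, 0.19 and 0.11, which does not settle whether the replicate numbers pair the arrays. With the replicate block 10173 probes and 1 of the 10 genes, Tet1, were called (adjusted p = 0.043, limma), with Dnmt1 at 0.065 and Uhrf1 at 0.052. The pair differences had exact p-values of 0.25 to 0.75 by sign flips over the replicate numbers, a test that cannot go below 0.25. Replicates 2 and 3 of each group correlated best with their own number in the other group, and replicate 1 did not.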
